A study of Talaromyces pinophilus with 6 samples.

Results

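The run of consecutively numbered genes *TP04961* to *TP04966* (6 genes) was followed among the 11632 genes listed in any library of *Talaromyces pinophilus*, a soil fungus that secretes starch- and cellulose-degrading enzymes. It holds an isp4-like gene (*TP04961*), a dipeptidase gene (*TP04962*), a γ-glutamyltranspeptidase gene (*TP04963*), a gene of a hypothetical protein (*TP04964*), an N,O-diacetylmuramidase gene (*TP04965*) and a glycosyl hydrolase gene (*TP04966*). All 6 genes were picked by number because they were lower in the mutant Δ*TP05746*, so their difference between the strains is given as a description with no test. The annotations come from the study's own list of genes that differed between the strains, which matched proteins to those of other fungi. Neither coordinates nor sequences of these genes were used here, so neighbourhood means neighbouring numbers only.

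Mycelium was grown on glucose, moved to soluble corn starch at 1% (w/v) and collected 12 h later, and its total RNA gave 6 libraries, 3 per strain. Δ*TP05746* lacks *TP05746*, a gene of a Zn2Cys6 transcription factor, and *TpKu70*, a gene of DNA end joining. Its parental strain Δ*TpKu70* lacks only *TpKu70*, and both come from the wild-type strain 1–95. The sources used here do not say which transformant was sequenced, or whether replicate libraries stem from separate cultures. The comparison asks which transcripts differ once *TP05746* is removed.

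The deleted gene *TP05746* had no count in any Δ*TP05746* library, against 135, 42 and 28 in replicates 1, 2 and 3 of Δ*TpKu70*. Expected counts, the fragments that RSEM assigns to a gene, added up to between 4091718 and 4696455 per library. Δ*TpKu70* replicate 1 stood apart from the other libraries of its strain. Its log2 CPM correlated at 0.898 and 0.89 with theirs across the genes tested, which correlated at 0.965 with each other. Below, FPKM is the authors' value scaled by gene length and library size, which allows levels of different genes to be compared. CPM are counts scaled by library size and by TMM factors, which allow for differences in composition between libraries.

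N,O-diacetylmuramidases of glycoside hydrolase family 25 cut the sugar backbone of bacterial cell walls, and glycoside hydrolase family 3 takes single sugars off the ends of glycan chains. γ-Glutamyltranspeptidase removes the γ-glutamyl group of glutathione, the main thiol of the cell, and dipeptidases then split the dipeptide that remains. The isp4 protein of *Schizosaccharomyces pombe* belongs to a family of oligopeptide transporters. In yeasts, γ-glutamyltranspeptidase and oligopeptide transporters are known from the use of glutathione and peptides as nutrients.

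The most abundant gene of the run in the parental strain was the family 3 glycosyl hydrolase gene *TP04966*. Its transcript level was 1.15, 0.66 and 1.67 FPKM in Δ*TP05746* replicates 1, 2 and 3, against 565, 219.8 and 282 FPKM in Δ*TpKu70*. These levels rest on 7, 4 and 10 counts in Δ*TP05746*, and on 3594, 1391 and 1749 counts in Δ*TpKu70*. No library of one strain came near the range of the other. The RNA is that of bulk mycelium, so fewer cells with the transcript and less transcript per cell cannot be told apart. The mean was 1.27 ± 0.555 CPM in Δ*TP05746* and 622 ± 239 CPM in Δ*TpKu70* (SD, n = 3 each), a log2 fold change of −8.91. Over the 9 pairs of libraries the log2 ratio of CPM ran from −10.30 to −7.84. By FPKM the gene ranked 170, 439 and 334 among the 8522 genes tested in Δ*TpKu70* replicates 1, 2 and 3, and between 7564 and 8078 in Δ*TP05746*.

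The muramidase gene *TP04965* had no count in any Δ*TP05746* library. In Δ*TpKu70* replicates 1, 2 and 3 it had 246, 95 and 182 counts, which is 74.5, 28.8 and 56.4 FPKM. It was thus listed in every library of one strain and in none of the other. Against a floor of 3 counts per library, its transcript level was at least 91.1-fold lower in Δ*TP05746*, or at least 80.8-, 111- and 81.8-fold lower when Δ*TpKu70* replicate 1, 2 or 3 was left out. The floor covers counting error only. The fitted log2 fold change of −10.80 has no lower limit in the data and depends on the prior count of the fit.

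The γ-glutamyltranspeptidase gene *TP04963* came after *TP04966* in abundance. It had 3.78, 1.2 and 1.5 FPKM in Δ*TP05746* replicates 1, 2 and 3, against 199.7, 76.7 and 98.5 FPKM in Δ*TpKu70*. The mean was 4.27 ± 2.93 CPM in Δ*TP05746* and 391 ± 154 CPM in Δ*TpKu70* (SD, n = 3 each), with a log2 fold change of −6.51. The strains did not overlap, but the spread within Δ*TP05746* was wide. Replicate 1 had 41 counts, against 13 and 16 in replicates 2 and 3, and without it the log2 fold change was −7.23.

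The dipeptidase gene *TP04962* differed least. It had 32.1, 25.8 and 24.9 FPKM in Δ*TP05746*, against 63.5, 35.5 and 33.1 FPKM in Δ*TpKu70*. The highest Δ*TP05746* library and the lowest Δ*TpKu70* library nearly met on this scale. With TMM factors the gene had a mean of 39.7 ± 7.07 CPM in Δ*TP05746* and 102 ± 24.7 CPM in Δ*TpKu70* (SD, n = 3 each), a log2 fold change of −1.36. When counts were scaled by library totals alone, the log2 fold change was −0.57, and on log2(FPKM + 1) it was −0.60. Both are under the minimum of 1, so the size of this difference rests on the scaling. It was the only gene of the run that kept more than 5 FPKM in Δ*TP05746*.

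The isp4-like gene *TP04961* was the least abundant in the parental strain. Its level was 0.50, 0.64 and 0.86 FPKM in Δ*TP05746*, against 5.53, 3.19 and 4.44 FPKM in Δ*TpKu70*. The counts were 7, 9 and 12 in Δ*TP05746*, and 82, 47 and 64 in Δ*TpKu70*, so the groups did not overlap. The log2 fold change was −3.42, with pairs of libraries from −4.00 to −2.68.

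The gene of the hypothetical protein, *TP04964*, had 0, 0 and 1 counts in Δ*TP05746* replicates 1, 2 and 3, against 46, 18 and 21 in Δ*TpKu70*. These are 0, 0 and 0.30 FPKM in Δ*TP05746*, and 13.2, 5.15 and 6.15 FPKM in Δ*TpKu70*. From the summed counts of 1 and 85, the level was 135-fold lower in Δ*TP05746*, with an exact 95% binomial interval of 23.5- to 5370-fold that covers counting error only. A single fragment in Δ*TP05746* replicate 3 thus sets the fold, and without that library the fitted log2 fold change moved from −6.49 to −8.09.

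**Figure D1:**
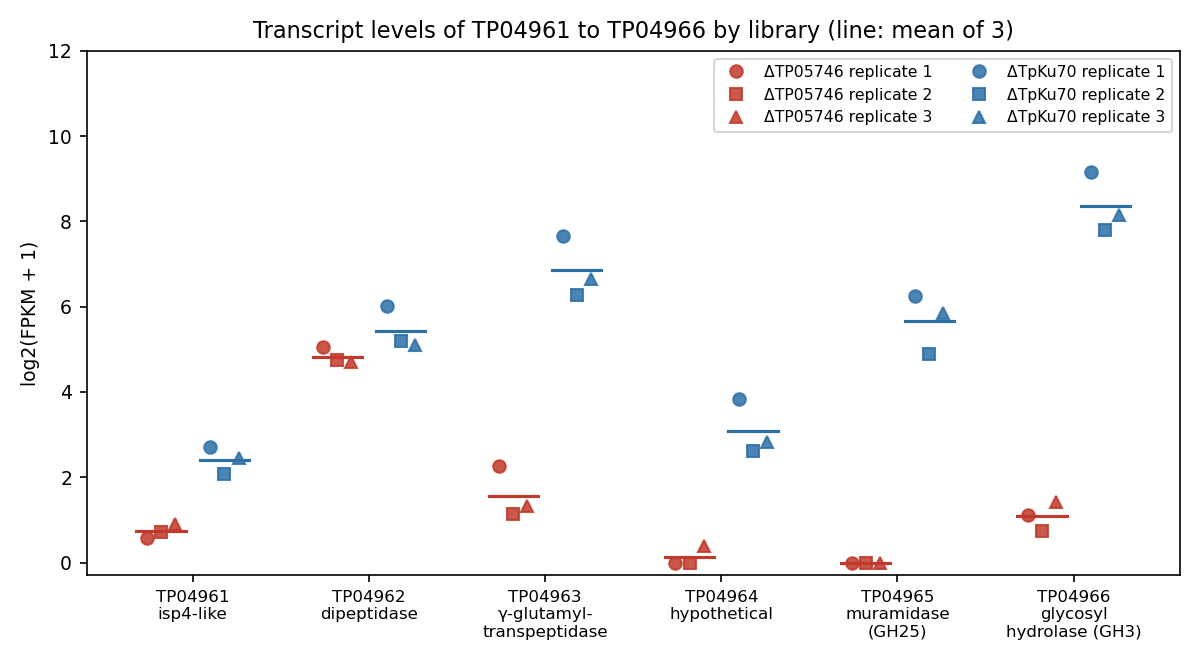
Transcript levels of the 6 genes as log2(FPKM + 1) on the y axis, by gene on the x axis. Points are libraries (shape gives the replicate), with Δ*TP05746* in red to the left of Δ*TpKu70* in blue, and lines are means of 3. The dipeptidase gene *TP04962* has the smallest gap between the strains, and the muramidase gene *TP04965* is at 0 in all 3 Δ*TP05746* libraries.

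All 6 genes passed the filter of at least 1 FPKM in at least 3 libraries, and all 6 were past the rule for lower genes (a log2 fold change of −1 or less with an adjusted p no higher than 0.05, edgeR's quasi-likelihood test). Of all genes tested, 20.5% were lower by this rule and 38.7% were past it in either direction. Because the members were picked on this contrast, nothing is read from their count. Of them, 3 (*TP04961*, *TP04964* and *TP04965*) reached 1 FPKM in the Δ*TpKu70* libraries alone and had to differ once kept. The median log2 fold change was −6.50 over the 6 genes and 0.0284 over all 8522 genes tested. All 3 Δ*TP05746* libraries lay below all 3 Δ*TpKu70* libraries for 6 of 6 genes in CPM and in FPKM, which held for 29.9% and 17.1% of all genes tested. Consecutive numbers that were all lower formed 8 runs of 6 or more genes in the whole table.

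All counts of the 6 genes were whole numbers in every library, with no sign of fragments shared with another gene model.

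As a whole, the run took 0.00763%, 0.00551% and 0.00565% of the counts in Δ*TP05746* replicates 1, 2 and 3, against 0.146%, 0.0578% and 0.0734% in Δ*TpKu70*. What remained in the mutant was mostly dipeptidase transcript. *TP04962* made up 85.5%, 91.2% and 85.2% of the summed FPKM of the 6 genes in Δ*TP05746*, but 6.89%, 9.62% and 6.88% in Δ*TpKu70*. *TP04966* made up 3.06%, 2.33% and 5.72% in Δ*TP05746*, but 61.3%, 59.5% and 58.7% in Δ*TpKu70*. These shares do not depend on the scaling between libraries, and they describe the same contrast that picked the genes.

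**Figure D2:**
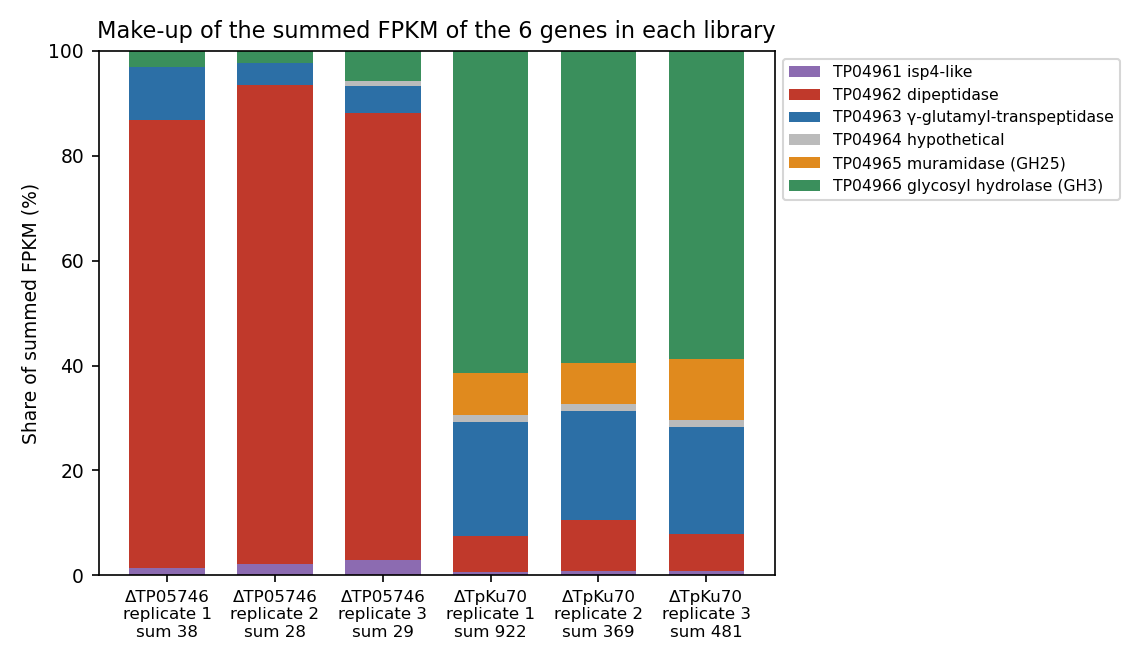
Share of each of the 6 genes in their summed FPKM (y axis, %), for the 3 Δ*TP05746* libraries and then the 3 Δ*TpKu70* libraries (x axis, with the FPKM sum under each bar). *TP04962* takes 85.2% to 91.2% in Δ*TP05746*, and *TP04966* takes 58.7% to 61.3% in Δ*TpKu70*.

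The order of levels differed between the strains. In Δ*TP05746* replicates 1 and 2 the FPKM ran from *TP04962* through *TP04963*, *TP04966* and *TP04961* to *TP04964* and *TP04965*, and replicate 3 had *TP04966* above *TP04963*. The ranges of *TP04963* and *TP04966* overlapped there, as did those of *TP04966* and *TP04961*. In Δ*TpKu70*, *TP04966* was first and *TP04963* second in each library. The muramidase and dipeptidase genes followed and changed places in replicate 2, with overlapping ranges. *TP04964* and *TP04961* came last, and their ranges overlapped as well.

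A ratio of genes within a library does not depend on the scaling between libraries. *TP04966* had 0.304, 0.55 and 1.11 times the FPKM of *TP04963* in Δ*TP05746*, on few counts, against 2.83, 2.87 and 2.86 times in Δ*TpKu70* replicates 1, 2 and 3, although the parental levels themselves differed by more than 2-fold between replicates 1 and 2. Other ratios varied more within the parental strain. *TP04961* had 0.0156, 0.0248 and 0.0346 times the FPKM of *TP04962* in Δ*TP05746*, against 0.0871, 0.0898 and 0.134 times in Δ*TpKu70*. The γ-glutamyltranspeptidase gene *TP04963* had 0.118, 0.0465 and 0.0603 times the FPKM of the dipeptidase gene *TP04962* in Δ*TP05746*, against 3.15, 2.16 and 2.98 times in Δ*TpKu70*.

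Δ*TpKu70* replicate 1 had the highest FPKM of its strain for 6 of 6 genes, and the highest CPM for 5 of 6, with *TP04961* as the exception. Among all genes tested, replicate 1 was the highest for 57.7% in FPKM and 42.7% in CPM, and among the genes lower in Δ*TP05746* for 33.2% and 22.2%. *TP05746* itself had 23.8, 7.44 and 5.07 FPKM in Δ*TpKu70* replicates 1, 2 and 3. The part of this library in the result was measured by leaving it out. The log2 fold changes were then −3.36, −1.16, −6.18, −6.14, −10.66 and −8.58 for *TP04961* to *TP04966*.

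The 5 numbers before and the 5 after the run were then compared. The ends of the run were set with this contrast known and lie where the consecutive lower numbers stop, so the values of the adjoining *TP04960* are given as a description. Of these 10, *TP04956*, *TP04958* and *TP04967* were listed in no library, and *TP04957*, *TP04968*, *TP04969* and *TP04970* had at most 9 counts in any library and were not tested. Neither *TP04959* nor *TP04971* was past the threshold in edgeR's quasi-likelihood test or in DESeq2, and neither had an unadjusted p below 0.05 in edgeR's test.

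Just before the run, *TP04960* had 1.72, 1.61 and 0.86 FPKM in Δ*TP05746*, against 0.41, 1.77 and 1.5 FPKM in Δ*TpKu70*. The strains overlapped, with a log2 fold change of −0.61 (standard error 0.62) that turned to 0.28 with library totals. Its counts have decimals, so fragments were shared with another gene model and its level is uncertain. The number just after the run, *TP04967*, was not listed.

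*TP04959* had 2.70, 3.56 and 4.95 FPKM in Δ*TP05746*, against 1.95, 1.36 and 1.94 FPKM in Δ*TpKu70*, so the strains did not overlap in FPKM. With TMM factors they overlapped, with 9.43 ± 2.76 CPM in Δ*TP05746* and 7.40 ± 1.61 CPM in Δ*TpKu70* (SD, n = 3 each; log2 fold change 0.35, standard error 0.34, adjusted p = 0.432 in edgeR's quasi-likelihood test). With library totals it was higher in Δ*TP05746* by a log2 fold change of 1.18 (adjusted p = 0.0267, from 0.0267 to 0.863 over the alternatives), when the median of all genes was 0.846.

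After the run, *TP04971*, a gene of carbohydrate-active enzyme class AA6, had 2.70, 1.73 and 1.49 FPKM in Δ*TP05746*, against 0, 0 and 2.50 FPKM in Δ*TpKu70*. One library thus decides its level in the parental strain. The log2 fold change was 0.35 (standard error 1.27, adjusted p = 0.838 in the same test, from 0.0205 to 0.999 over the alternatives). Without Δ*TpKu70* replicate 3 it was 6.04. The parental libraries left were then at 0, so the gene reached 1 FPKM in Δ*TP05746* alone and had to differ. Its counts have decimals, and fragments were shared with another gene model. The annotation of *TP04971* comes from the study's list of genes that differed between the strains, although the gene was not past the threshold here with all libraries. The rules are unlike, since the study used a log2 ratio of FPKM with a p-value. The rule here used counts with TMM factors and an adjusted p.

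**Figure D3:**
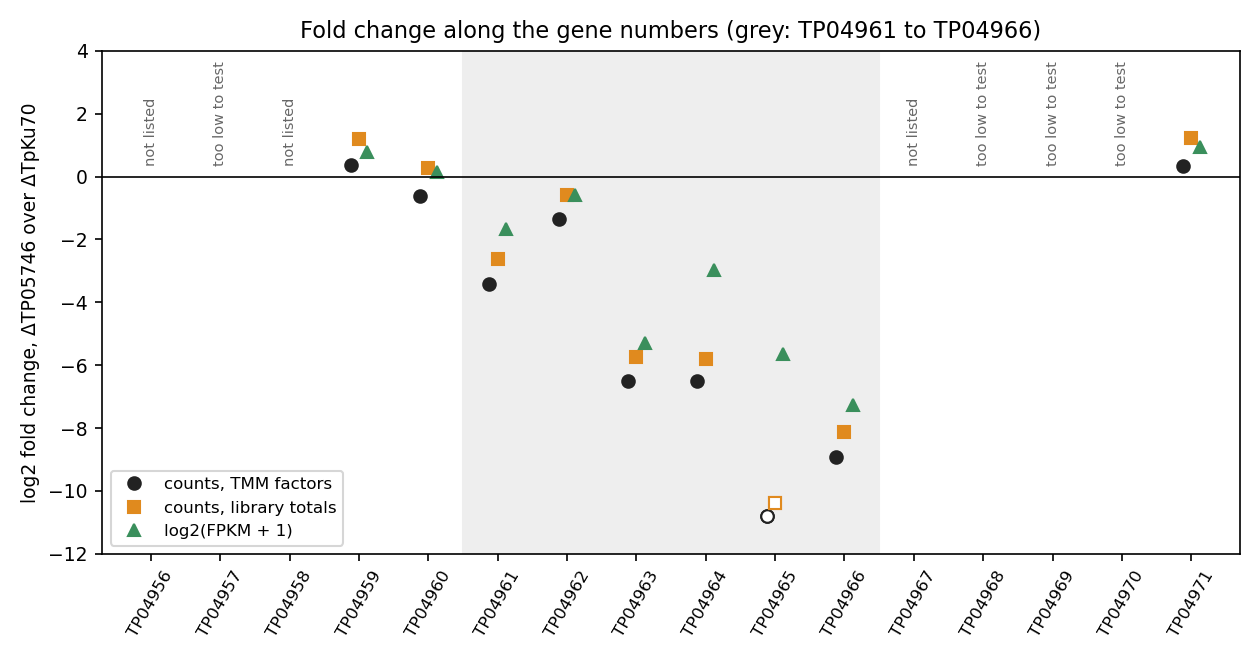
Log2 fold change of Δ*TP05746* over Δ*TpKu70* (y axis) by gene number (x axis), with the 6 genes of the run on grey and under 3 scalings. Open symbols mark *TP04965* under the count scalings, as its Δ*TP05746* libraries were all at 0 and its fitted value is no bound. Its symbol for log2(FPKM + 1) is filled, and that value depends on the pseudocount. The 6 genes lie below 0 under each scaling shown, with *TP04962* at −1.36, −0.57 and −0.60, and the flanking genes tested lie between −0.61 and 1.24.

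Other genes with related annotation were counted in the same test. The annotation at hand ends at *TP06007* and holds only genes the study picked on these libraries. Their counts and fold changes are thus a description of direction and not independent evidence, and no p-value is given for them. Of 17 such genes, 16 were listed, 15 were tested, 5 were higher, 9 were lower and 1 was not past the threshold, with a median log2 fold change of −1.61. Of all genes tested, 18.2% were higher and 20.5% lower. Because the study picked the list genes on the same contrast, nothing is read from how many of them were past the rule, here or in each list below.

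Genes of peptide uptake and peptide cleavage went both ways, with 2 higher and 3 lower of 5 tested. The peptide transporter gene *TP00128* fell to 17.7, 11.5 and 18.4 CPM in Δ*TP05746*, against 1511, 900.4 and 783 CPM in Δ*TpKu70* (log2 fold change −6.06, standard error 0.42). The oligopeptide transporter gene *TP02058*, of the family to which isp4 belongs, rose to 36, 46 and 37 counts in Δ*TP05746*, against 4, 1 and 1 in Δ*TpKu70* (log2 fold change 3.61, standard error 0.49). It reached 1 FPKM in the Δ*TP05746* libraries alone and had to differ once kept. Its log2 fold change was 4.398 without Δ*TpKu70* replicate 1, which holds the 4 counts, and 1.74 with limma on log2(FPKM + 1). *TP05202*, annotated as a methionine aminopeptidase, which takes the first methionine off new proteins, fell by 2.17 on the log2 scale. The dipeptidyl peptidase gene *TP01588* had a log2 fold change of −1.61 and counts with decimals, and its call was lost with library totals and with limma on FPKM (−0.81 at the smallest). The other methionine aminopeptidase gene, *TP01501*, was at 0 in all Δ*TpKu70* libraries, and its counts have decimals. It too had to differ once kept.

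Of 8 glutathione genes, 6 were tested, with 3 higher and 3 lower. The glutathione synthetase gene *TP01914*, whose product completes glutathione, rose to 184, 244 and 198 counts in Δ*TP05746*, against 7, 3 and 2 in Δ*TpKu70* (log2 fold change 5.03, standard error 0.39). *TP01914* reached 1 FPKM in the Δ*TP05746* libraries alone and had to differ once kept. The glutathione reductase gene *TP03723*, whose product restores the reduced form, fell to 213 ± 13.9 CPM in Δ*TP05746*, against 1096 ± 260 CPM in Δ*TpKu70* (SD, n = 3 each; log2 fold change −2.36), with counts that have decimals. Glutathione S-transferases couple glutathione to other compounds. Of their genes, *TP05142* fell to 1, 1 and 0 counts in Δ*TP05746*, against 8, 7 and 12 in Δ*TpKu70*. It reached 1 FPKM in the Δ*TpKu70* libraries alone and had to differ once kept. *TP03539* was at 0 in all Δ*TpKu70* libraries with decimals in its counts, and it too had to differ once kept. The calls of *TP05408* (log2 fold change −1.23) and *TP02698* (1.70, with decimals in its counts) were lost under 6 and 7 of 14 alternatives. For *TP02698* the call needed each of the 6 libraries, and without Δ*TP05746* replicate 1 the log2 fold change was 1.08.

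Of the 2 other genes at hand from glycoside hydrolase family 3, the β-glucosidase gene *TP01149* fell by 4.12 on the log2 scale, with counts that have decimals. The β-xylosidase gene *TP05314* had 12, 24 and 19 counts in Δ*TP05746*, against 16, 34 and 34 in Δ*TpKu70*. It missed the limit on the adjusted p, with a log2 fold change of −1.33 (standard error 0.49). It passed without Δ*TpKu70* replicate 1 (log2 fold change −1.69).

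Both amino sugar genes were lower. *TP02985*, annotated as an amidohydrolase of carbohydrate esterase family 9, a family known for removing acetyl groups from N-acetylglucosamine phosphate, fell to 33, 18 and 47 counts in Δ*TP05746*, against 101, 961 and 652 in Δ*TpKu70* (log2 fold change −4.87, standard error 0.94). The glucosamine-6-phosphate isomerase gene *TP03811* had a log2 fold change of −2.05 on 27 or fewer counts per library, and its call was lost under 7 of 13 alternatives, among them library totals and the leaving out of 4 of the 6 libraries one at a time. Without Δ*TP05746* replicate 3 it was −2.65.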

How the data were processed

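The authors mapped reads to the strain 1–95 genome and deposited RSEM expected counts, which are not scaled. The FPKM column they deposited beside the counts corrects for the length of a gene and the depth of a library. The submitters' processing notes give RSEM 1.2.12, Bowtie2 2.1.0, BWA 0.7.10-r789 and DESeq2. A gene not listed for a library was read as 0. Of 11632 genes, 2326 had counts with decimals.

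The 6 libraries were grouped by strain from their labels, 3 each. Expected counts were rounded and genes with at least 1 FPKM in at least 3 of 6 libraries kept (8522). Counts were scaled with TMM factors, which split by strain (0.667 to 0.877 in Δ*TpKu70*, 1.31 to 1.37 in Δ*TP05746*). They were tested with edgeR 4.0.16 (quasi-likelihood, two-sided, Benjamini-Hochberg over all genes kept) in R 4.3.3. The threshold was a log2 fold change of 1 or more in size with an adjusted p no higher than 0.05. Standard errors were derived from the log2 fold change and the F statistic. Precision was set by library totals of 4091718 to 4696455, and p-values reflect only the spread among these libraries, which may be technical. The test was checked on simulated counts in which few genes changed, as many up as down, so that check cannot judge the choice of scaling.

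The genes of the run, the lists and the rules were chosen with earlier results of these data known. Named genes are the 6 of the run, the 10 flanking numbers, *TP05746*, genes of the 4 lists (at most 3 a list that passed; others were named after their values were seen) and the 5 genes with the most similar profile. Annotations are from the first 1998 rows of the study's supplementary gene list, whose values were not used. No gene ID matched the reference table (0 matches), so no coordinates or sequences are given. Alternatives were median-ratio factors, library totals, DESeq2 1.42.0, limma 3.58.1 on log2(FPKM + 1) or log2(FPKM + 0.1), no filter, 5 FPKM, a replicate block and leaving out each library. Python 3.11.15, pandas 2.3.3, SciPy 1.17.1 and matplotlib 3.10.9 were used.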

Additional observations from a re-analysis of the deposited data

How the results depend on the processing

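All 6 genes of the run were past the rule with median-ratio factors, DESeq2, no filter, the replicate block and each library left out in turn. The count was 5 with library totals and with limma on log2(FPKM + 1) or log2(FPKM + 0.1), where *TP04962* missed the fold minimum, and 5 with a filter of 5 FPKM, which left out *TP04961*. The median log2 fold change of the 6 genes, −6.50, was −5.78 with library totals, −4.12 with limma on log2(FPKM + 1) and −5.71 on log2(FPKM + 0.1), and from −7.20 to −6.12 with a library left out. A pseudocount shrinks the change of low genes by construction. Flanking genes past the rule numbered 1 (*TP04959*) with library totals and with limma on log2(FPKM + 0.1). They numbered 0 to 1 with a library left out (*TP04971* without Δ*TpKu70* replicate 3). With that library gone, *TP04971* was at 0 in Δ*TpKu70* and had to differ. Other causes were not tested.

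Genes past the rule numbered 3299 in all, of which 47.0% were higher in Δ*TP05746*. The share was 75.7% with library totals (median log2 fold change of all genes 0.846) and 74.5% with limma on log2(FPKM + 1) (median 0.691) or log2(FPKM + 0.1). With a library left out, 2564 to 4148 genes were past the rule. Replicate numbers did not pair the libraries (correlations of same-numbered deviations −0.078, −0.038 and 0.013), and with the replicate block the total was 2892, with 6 genes of the run and 0 flanking genes past the rule and a median of −6.54. The block ended the calls of *TP02698* and *TP05408*. Counts of 0 to 10 in Δ*TP05746* limit the precision of *TP04964*, *TP04965* and *TP04966*. So do counts of 7, 9 and 12 for *TP04961*, and of 13 and 16 in replicates 2 and 3 for *TP04963*.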

Other observations

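The genes with the profile most like the mean of the run were sought over the 6 libraries among the 8522 genes tested, by the root mean square distance between log2(FPKM + 1) profiles centred on their own means. The closest was *TP02440*, annotated as an aromatic aminotransferase, at a distance of 0.154. It had 33.0, 22.0 and 29.7 FPKM in Δ*TP05746* replicates 1, 2 and 3, against 553, 257 and 331 FPKM in Δ*TpKu70*. The next were *TP06265* (0.206), *TP06548* (0.219), *TP11383* (0.232) and *TP06689* (0.234), for which no annotation was at hand. The genes of the run themselves lay further from this mean, from 0.492 (*TP04964*) to 1.69 (*TP04966*). Likeness to the mean is thus not likeness to any single gene of the run. *TP11383* was the most abundant, with 101.5, 51.5 and 89.3 FPKM in Δ*TP05746*, against 2182, 913 and 1199 FPKM in Δ*TpKu70*.

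Within the run, *TP04963* and *TP04965* were the closest pair by this distance (0.443). *TP04965* ranked 13 among all genes by likeness to *TP04963*, and *TP04963* ranked 12 by likeness to *TP04965*. Since *TP04965* was at 0 in Δ*TP05746*, its distances depend on the pseudocount of 1. With limma on log2(FPKM + 1) the log2 fold changes were −5.66 for *TP04965* and −5.28 for *TP04963*. On log2(FPKM + 0.1) they were −8.95 and −5.84. The dipeptidase gene *TP04962* was nearest to *TP04961* (0.604), which ranked 2038 by likeness to it. These distances take in the difference between the strains, on which the run was picked, and are given with no test.

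The length behind each FPKM value can be read back from the counts. It was 3137 bases for *TP04961*, 1850 for *TP04962*, 2434 for *TP04963*, 703 for *TP04965* and 1348 for *TP04966*. These are medians over libraries with at least 40 counts, which for *TP04961*, *TP04965* and *TP04966* were the 3 of Δ*TpKu70*. *TP04964* reached 40 counts in only 1 library, with 754 bases. Each value reflects the effective length of the gene model as the authors' quantification used it, and is not a coordinate. The values varied between libraries, from 1775 to 1957 for *TP04962* and from 2411 to 2651 for *TP04963*.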
